A study of Mus musculus with 6 samples.

Results

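The genes of the mitochondrial ribosomal proteins were taken as every symbol of the count table that begins with Mrpl or Mrps followed by a digit, without pseudogenes. They number 78 of 16171 symbols. By symbol, 49 belong to the large subunit (Mrpl) and 29 to the small subunit (Mrps), and all 78 passed the filter on low counts that left 11480 genes for testing. RNA was sequenced from Raw264.7, a wild-type mouse macrophage cell line, grown on 2 titanium surfaces. In the THCaP group the surface carried a calcium phosphate nanowire coating (3 libraries). In the TH group it carried titanate nanowires made by alkaline heat treatment, the control surface (3 libraries). Cells of all 6 libraries were left to attach for 12 h, were given lipopolysaccharide at 1 µg/mL for 2 h and were collected after a further 1 d, so no library comes from unstimulated cells.

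The mitochondrial ribosome sits in the mitochondrial matrix and translates the few proteins that mitochondrial DNA encodes, which are core subunits of the respiratory chain and of ATP synthase. Its RNA comes from mitochondrial DNA, but all of its proteins are encoded in the nucleus, made in the cytosol and imported. The small subunit binds the messenger RNA and decodes it, and the large subunit forms the peptide bond and releases the chain at the inner membrane. Some of the proteins have counterparts in the bacterial ribosome, and others are found only in mitochondria. Macrophages activated by lipopolysaccharide are known to shift their energy metabolism away from respiration.

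Library totals ran from 28000099 to 30317108 counts. The 78 genes took 0.350, 0.383 and 0.330% of all counts in THCaP replicates 1, 2 and 3, and 0.335, 0.304 and 0.303% in TH replicates 1, 2 and 3. The shares of the 2 surfaces overlap, because THCaP replicate 3 lay below TH replicate 1. The 8 macrophage markers examined, among them Csf1r, Cd68 and Adgre1, summed to 2634 to 2930 CPM (counts scaled by library size and TMM factor) on THCaP and to 2443 to 2950 CPM on TH. Markers of fibroblasts, T cells, B cells, neutrophils and epithelium each summed to at most 0.669 CPM in any library, and 4 endothelial markers to 2.27 to 4.06 CPM on THCaP and 4.55 to 5.65 CPM on TH. In bulk RNA, fewer cells of a type and less RNA per cell cannot be told apart.

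Promoter windows of 300 bases (250 before to 50 after the annotated start; RefSeq, GRCm38.p6) were found for 69 of the 78 genes. The windows of 6 genes that differed between the surfaces are shown, chosen after the calls were known. Of the 10 genes that rose on THCaP, 3 share a sequence just after the start. The gene with the largest rise and both genes that fell lack it. Mrpl18, Mrpl3, Mrps2, Mrps5, Mrps17 and Mrps18c also rose without this sequence and are not shown. Capitals mark the YY1 letters AAGATGGC in Mrpl37, Mrpl42 and Mrpl49, and also the E-box letters CACGTG in Mrpl37.
Mrpl37, chr4:107066817-107067116, minus strand: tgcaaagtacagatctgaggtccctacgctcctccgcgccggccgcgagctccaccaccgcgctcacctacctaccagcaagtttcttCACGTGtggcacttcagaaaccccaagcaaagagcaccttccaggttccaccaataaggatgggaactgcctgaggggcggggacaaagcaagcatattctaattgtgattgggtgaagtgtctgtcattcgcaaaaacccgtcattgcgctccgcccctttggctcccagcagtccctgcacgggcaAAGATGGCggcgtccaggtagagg
Mrpl42, chr10:95501900-95502199, minus strand: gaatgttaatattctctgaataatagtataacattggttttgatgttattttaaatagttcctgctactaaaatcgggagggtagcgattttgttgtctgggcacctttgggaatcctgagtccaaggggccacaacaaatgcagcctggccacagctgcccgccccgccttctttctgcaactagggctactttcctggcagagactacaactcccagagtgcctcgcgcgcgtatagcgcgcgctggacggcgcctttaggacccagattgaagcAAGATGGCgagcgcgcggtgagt
Mrpl49, chr19:6057706-6058005, minus strand: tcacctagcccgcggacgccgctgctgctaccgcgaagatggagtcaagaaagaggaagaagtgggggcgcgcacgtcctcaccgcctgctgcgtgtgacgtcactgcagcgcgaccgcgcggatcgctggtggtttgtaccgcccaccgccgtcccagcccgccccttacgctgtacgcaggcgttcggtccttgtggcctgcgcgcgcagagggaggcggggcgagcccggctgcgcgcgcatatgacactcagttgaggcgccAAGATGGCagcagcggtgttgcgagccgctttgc
Mrpl40, chr16:18876588-18876887, minus strand: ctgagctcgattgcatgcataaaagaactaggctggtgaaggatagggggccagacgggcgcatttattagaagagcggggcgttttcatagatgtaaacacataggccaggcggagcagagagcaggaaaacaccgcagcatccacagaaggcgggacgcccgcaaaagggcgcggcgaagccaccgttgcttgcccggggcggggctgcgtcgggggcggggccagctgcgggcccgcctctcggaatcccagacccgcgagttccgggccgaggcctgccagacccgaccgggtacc
Mrpl14, chr17:45686099-45686398, plus strand: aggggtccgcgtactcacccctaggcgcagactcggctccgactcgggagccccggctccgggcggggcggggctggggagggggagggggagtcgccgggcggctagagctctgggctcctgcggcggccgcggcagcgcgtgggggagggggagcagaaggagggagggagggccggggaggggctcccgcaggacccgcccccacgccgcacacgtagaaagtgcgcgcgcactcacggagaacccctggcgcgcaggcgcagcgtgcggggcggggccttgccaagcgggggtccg
Mrpl45, chr11:97315466-97315765, plus strand: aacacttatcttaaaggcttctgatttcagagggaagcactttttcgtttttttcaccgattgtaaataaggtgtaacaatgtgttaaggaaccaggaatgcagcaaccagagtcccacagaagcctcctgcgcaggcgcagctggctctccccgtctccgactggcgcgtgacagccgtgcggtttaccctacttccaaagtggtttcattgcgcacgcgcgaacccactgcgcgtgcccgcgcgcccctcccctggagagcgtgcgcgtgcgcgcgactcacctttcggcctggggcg

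The YY1 letters begin at base 27 in Mrpl37, base 28 in Mrpl42 and base 17 in Mrpl49, counted from 1 at the annotated start, in each case on the strand of the gene. Searched on both strands, AAGATGGC occurred in the windows of 12 of the 69 matched genes (17.4%), against 5.61% of the 9230 tested genes with a window and 2.75% of all 32851 windows. It was present in 6 of 43 large-subunit and 6 of 26 small-subunit genes. The ETS-family letters CCGGAAG, the core bound by GABP, a known activator of nuclear genes for mitochondria, occurred in 26 of the 69 (37.7%), against 21.3% of tested genes and 8.86% of all windows. Among genes that differed between the surfaces, Mrpl18, Mrpl3 and Mrps18c hold them. The NRF1 letters GCATGCGC were found in 8 genes (11.6%, against 6.25% of tested genes and 2.71% of windows), none of which passed the test between the surfaces. The E-box letters occurred in 5 genes (7.25%, against 11.9% of tested genes and 7.15% of windows) and the TATA-box letters TATAAA in 5 (7.25%, against 8.45% and 13.6%). Mrps17 holds the TATA-box letters at base -154, before the annotated start. The windows of Mrpl14, Mrpl40, Mrpl45, Mrps2 and Mrps5 held none of the 5 exact sequences. Variants of these letters were not searched for, so a window counted here as lacking them may still hold a variant site. The 12 genes with the YY1 letters had a median log2 fold change (THCaP over TH) of 0.26, with 3 called higher (25%). The 26 with the ETS letters had a median of 0.17, with 3 called higher (11.5%). Of all tested genes 11.6% were called higher. A match describes letters in a window and is not evidence of binding.

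The comparison of THCaP with TH asks how macrophages respond to the coated surface. Of the 78 genes, 10 rose and 2 fell on THCaP, at an adjusted p under 0.05 in edgeR's quasi-likelihood test with Benjamini-Hochberg adjustment over all tested genes. That is 12.8% higher and 2.56% lower. Over all tested genes the test called 11.6% higher (1333) and 12.0% lower (1376), so the share that rose is close to that of all genes and the share that fell is below it. In both directions together the shares are 15.4% of the 78 and 23.6% of all tested genes. The split of all genes depended on the scaling: scaled by library total instead, 1904 were called higher and 1063 lower. The shifts of the mitochondrial ribosomal protein genes were small and mostly to the same side. Their median log2 fold change was 0.18 (quartiles 0.07 and 0.30), against 0.0064 over all tested genes, and 66 of the 78 values were above 0 (84.6%), against 50.7% of all tested genes. No test of the list was made, and the genes share libraries, so these counts are a description. The p-values cover only the spread between these libraries, because the labels do not say whether they came from separate cultures.

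**Figure D1:**
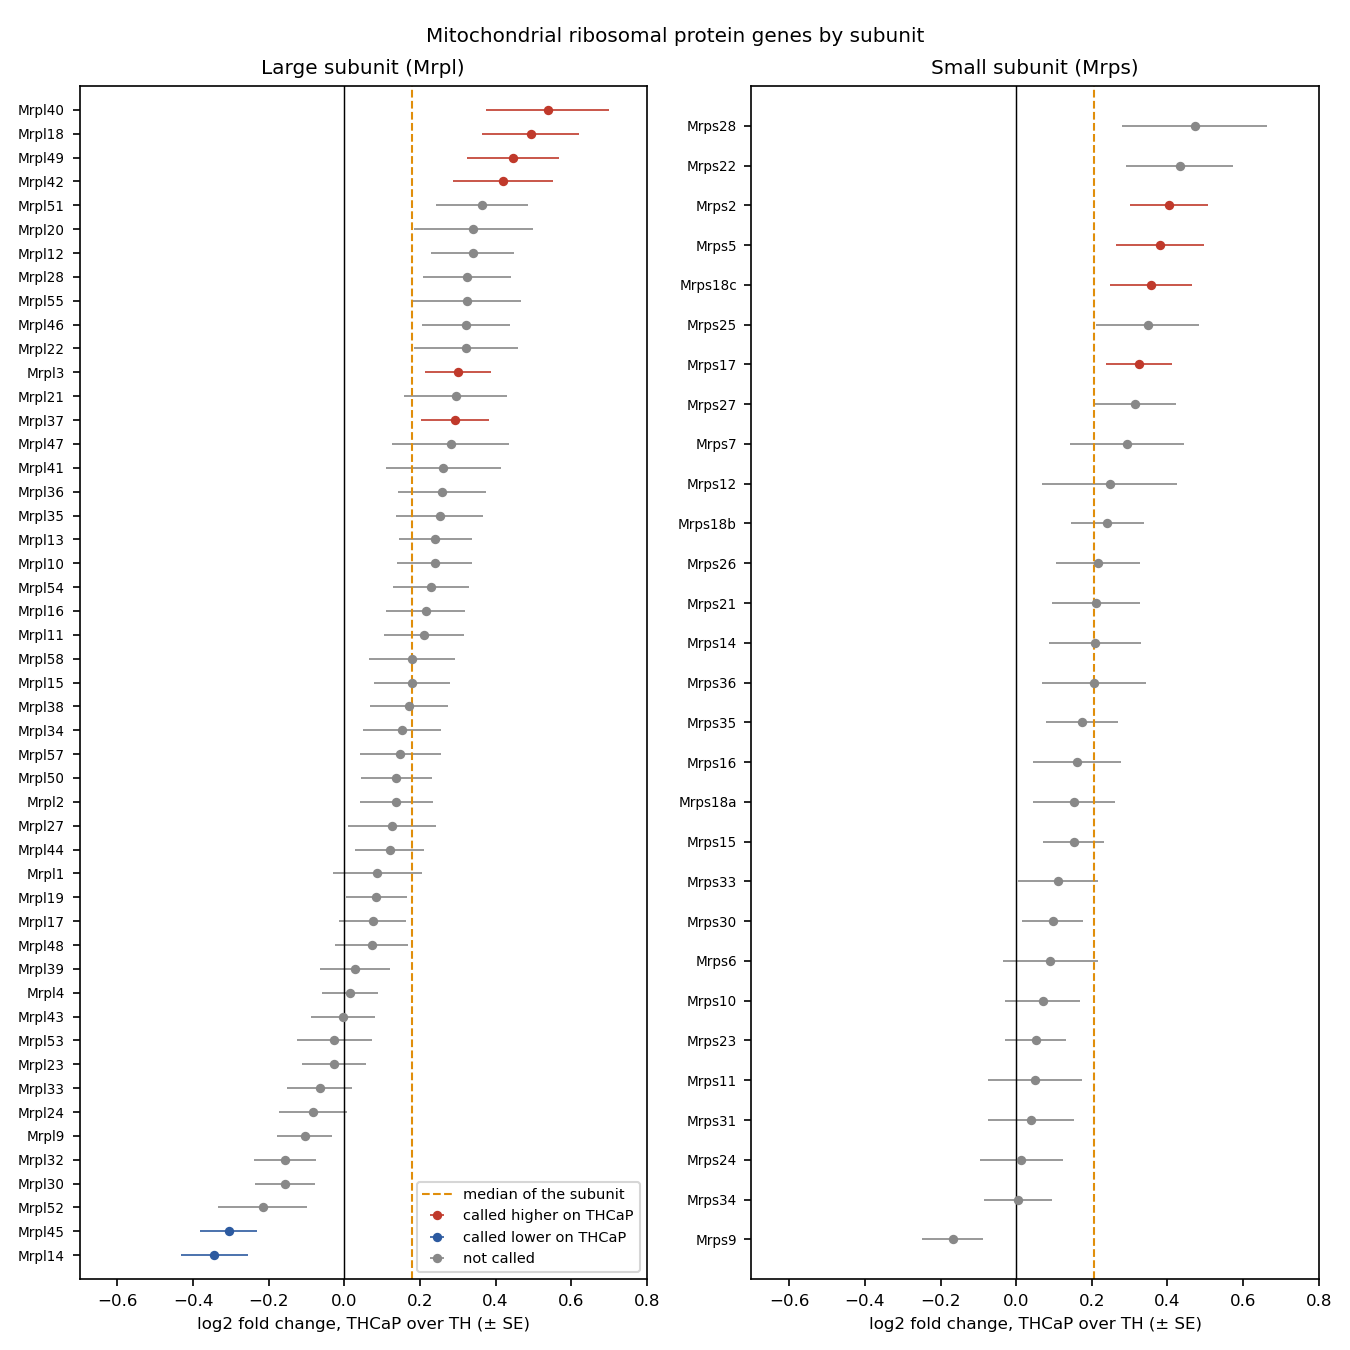
Log2 fold change, THCaP over TH, with its standard error (x axis) for each large-subunit gene (left) and small-subunit gene (right), from edgeR over 3 THCaP and 3 TH libraries. Red points were called higher on THCaP (6 large, 4 small), blue points lower (2 large), and the dashed line is the median of the subunit, 0.18 for the large and 0.21 for the small.

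Among the genes that passed the test, the 4 largest rises were in the large subunit. Mrpl40, a protein found only in mitochondrial ribosomes, had 20.1, 27.1 and 18.8 CPM in THCaP replicates 1 to 3, against 17.9, 14.2 and 13.4 CPM in TH replicates 1 to 3. Every THCaP library lay above every TH library, although THCaP replicate 3 and TH replicate 1 were close. The rise was 1.45-fold (log2 fold change 0.54, SE 0.16; adjusted p = 0.0405 in edgeR). Mrpl18 (chr17:12911349-12916345, GENCODE on GRCm38) is the counterpart of a bacterial protein that binds the small RNA of the large subunit. It had 62.9, 81.1 and 56.6 CPM on THCaP, against 50.7, 46.4 and 45.4 CPM on TH. The groups did not overlap, with THCaP replicate 2 the highest, and the rise was 1.41-fold (log2 fold change 0.49, SE 0.13, edgeR adjusted p = 0.0253). Mrpl49, another protein without a bacterial counterpart, had 27.8, 29.8 and 22.2 CPM on THCaP, against 20.2, 20.1 and 18.2 CPM on TH. THCaP replicates 1 and 2 stood well above the rest and replicate 3 only just (log2 fold change 0.45, SE 0.12, edgeR adjusted p = 0.0298).

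Mrpl42, also mitochondria-specific, had 54.1, 67.0 and 45.5 CPM on THCaP, against 44.2, 40.1 and 40.3 CPM on TH. THCaP replicate 3 was only slightly above TH replicate 1 (log2 fold change 0.42, SE 0.13, edgeR adjusted p = 0.0448). Mrpl3 (chr9:105053239-105079888) is the counterpart of a bacterial protein that reaches towards the site of peptide bond formation. It had 92.4, 99.0 and 82.0 CPM on THCaP, against 77.0, 72.3 and 72.7 CPM on TH. All 3 THCaP libraries were higher than all 3 TH libraries (log2 fold change 0.30, SE 0.09, edgeR adjusted p = 0.0369). Mrpl37, mitochondria-specific, had 53.3, 56.4 and 47.9 CPM on THCaP, against 45.1, 41.8 and 41.7 CPM on TH. Again the groups did not overlap (log2 fold change 0.29, SE 0.09; adjusted p = 0.0412 in edgeR).

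The 4 small-subunit genes that rose all have bacterial counterparts. Mrps2 (chr2:28468066-28471178) had 54.7, 61.8 and 49.0 CPM on THCaP, against 45.0, 39.9 and 40.2 CPM on TH, a 1.32-fold rise (log2 fold change 0.40, SE 0.10, edgeR adjusted p = 0.0240). Mrps5 (chr2:127587222-127606829), whose bacterial counterpart lines the entry path of the messenger RNA, had 41.3, 51.2 and 37.4 CPM on THCaP, against 33.6, 31.9 and 34.3 CPM on TH (log2 fold change 0.38, SE 0.12, edgeR adjusted p = 0.0430). In both genes THCaP replicate 2 was highest and no TH library reached a THCaP library. Mrps18c (chr5:100798627-100804471) belongs to a family of 3 related genes, with Mrps18a and Mrps18b. It had 18.8, 22.0 and 18.3 CPM on THCaP, against 16.1, 14.9 and 15.1 CPM on TH (log2 fold change 0.36, SE 0.11, edgeR adjusted p = 0.0412). Mrps17 (chr5:129715497-129722556) had 36.0, 39.4 and 34.7 CPM on THCaP, against 28.3, 30.3 and 29.3 CPM on TH (log2 fold change 0.32, SE 0.09; adjusted p = 0.0284 in edgeR). The libraries of each surface were close together in Mrps17, and here TH replicate 1 was the lowest of the TH libraries.

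Both genes that fell encode large-subunit proteins. Mrpl45, known to sit at the exit of the peptide tunnel and to hold the ribosome to the inner membrane, had 106, 99.6 and 111 CPM on THCaP, against 129.8, 132.7 and 129.4 CPM on TH. In TH the libraries lay within a narrow range above all THCaP libraries, and the level on THCaP was 1.24-fold lower (log2 fold change -0.31, SE 0.08, edgeR adjusted p = 0.0212). Mrpl14, whose bacterial counterpart lies at the face between the subunits, had 33.6, 34.0 and 33.5 CPM on THCaP, against 46.6, 42.0 and 39.6 CPM on TH. The THCaP libraries were nearly equal, all below the TH libraries, and the level on THCaP was 1.27-fold lower (log2 fold change -0.34, SE 0.09, edgeR adjusted p = 0.0242).

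**Figure D2:**
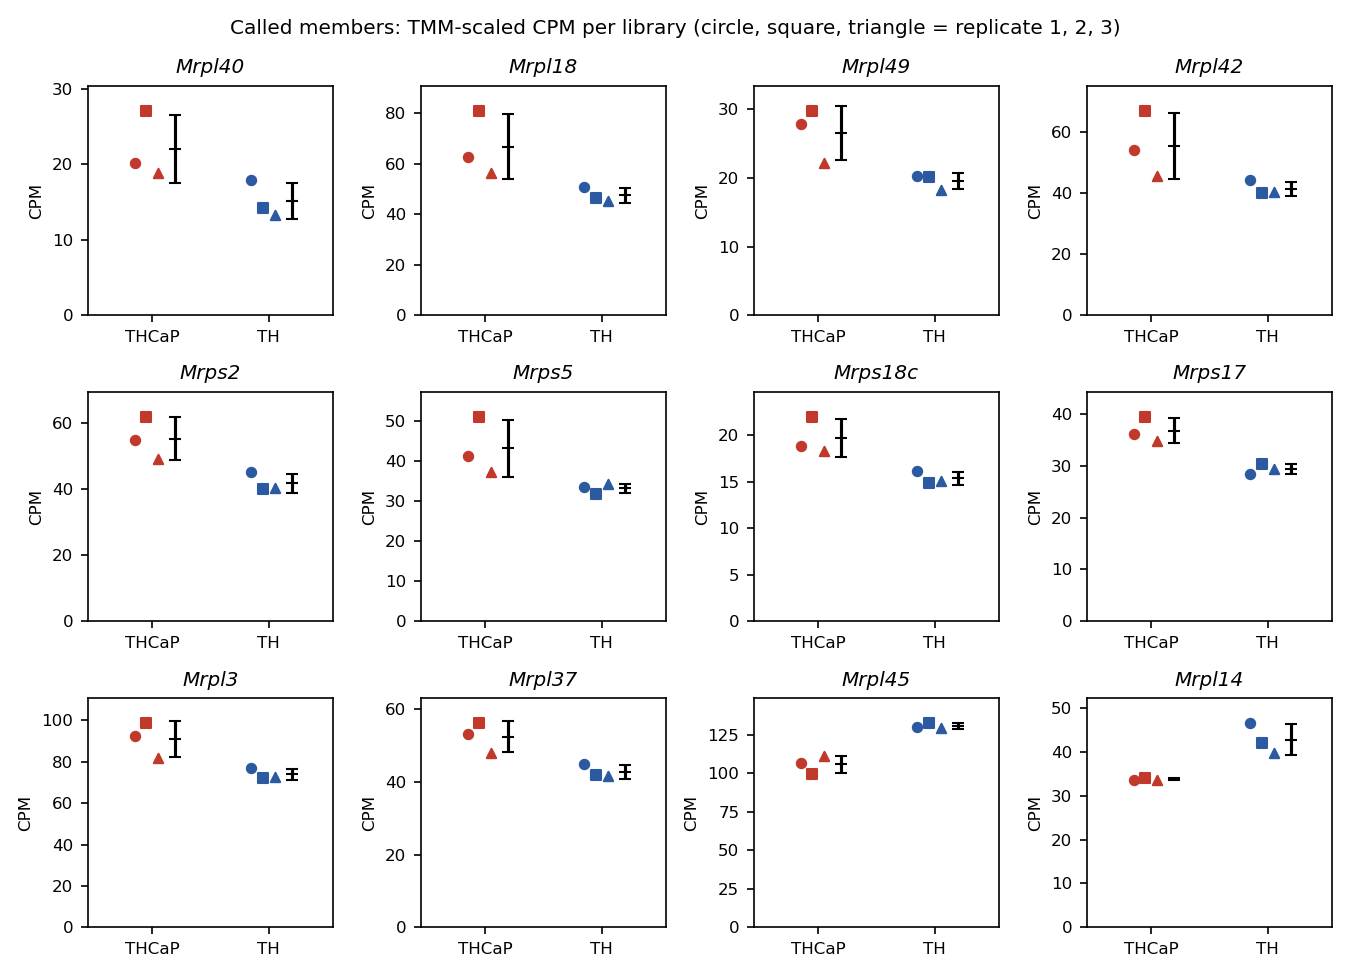
TMM-scaled CPM (y axis, from 0) of the 12 genes that passed the test, in 3 THCaP libraries (red, left) and 3 TH libraries (blue, right) of each panel, with mean and SD in black; circle, square and triangle are replicates 1, 2 and 3. In none of the 12 panels do the groups overlap, and THCaP replicate 2 is the highest library in all 10 genes that rose.

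Several further genes just missed the threshold and were chosen here after their values were seen. Mrpl12, the counterpart of the bacterial stalk protein, which is also known to bind the mitochondrial RNA polymerase, had a log2 fold change of 0.34 (edgeR adjusted p = 0.0512). Mrps22 had one of 0.43 (edgeR adjusted p = 0.0521) and Mrpl51 one of 0.36 (edgeR adjusted p = 0.0555). In each the groups did not overlap. Over the whole list, 22 genes had every THCaP library above every TH library (28.2%) and 6 had every THCaP library below (7.69%), while 50 overlapped. Among all tested genes these shares were 22.1% and 21.3%.

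The calls depended on which libraries were used. Without TH replicate 2, without TH replicate 3 or without THCaP replicate 1, edgeR called 0 of the 78 genes, while 6.91, 6.77 and 6.53% of all tested genes were still called. At an unadjusted p under 0.05, 16, 18 and 21 of the 78 genes passed in those fits (20.5, 23.1 and 26.9%), against 29.9, 29.4 and 29.0% of all tested genes. Without THCaP replicate 2, 2 were called higher (Mrpl18 and Mrps2) and 2 lower (Mrpl14 and Mrpl45), with 14.4% of all genes called, and the median log2 fold change was 0.10. Without THCaP replicate 3, 30 were called higher and 2 lower, with 36.0% of all genes called. Without TH replicate 1, 7 were called higher and 2 lower, with 21.2% of all genes called. Other ways of processing also moved the counts. With offsets for gene length 19 rose and 2 fell (30.0% of all genes called), and scaled by library total 16 rose and 2 fell (25.8% of all genes). DESeq2 called 15 higher and 2 lower (29.7% of all genes). Limma on log2(FPKM + 1) and on log2(FPKM + 0.1) each called 19 higher and 1 lower (27.5% and 27.3% of all genes), with Mrpl14 not called, and without a filter the first called 3 higher and 1 lower (8.26% of all genes).

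The subunits were then set side by side. As background, 11.6% of all tested genes were called higher and 12.0% lower, and 50.7% had a log2 fold change above 0. In the large subunit 6 of 49 genes rose (12.2%) and 2 fell (4.08%). The median log2 fold change there was 0.18, and 38 values were above 0 (77.6%). In the small subunit 4 of 29 genes rose (13.8%) and 0 fell. The median there was 0.21, and 28 values were above 0 (96.6%). The exception was Mrps9, with a log2 fold change of -0.17 (edgeR adjusted p = 0.155); at an unadjusted p under 0.05, 9 small-subunit genes passed (31.0%), against 39.1% of all tested genes. Despite their symbols, Mrps30 and Mrps18a encode proteins of the large subunit, and grouped by place the large subunit had a median of 0.17 (51 genes) and the small subunit 0.21 (27 genes, Mrps36 still among them), with the same calls. The difference between the subunits was not tested.

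The same was done for each library. Each gene's log2 CPM was taken relative to its mean over the 6 libraries, and these relative levels were averaged over genes. The large subunit averaged 0.07, 0.21 and -0.05 in THCaP replicates 1 to 3, against 0.02, -0.12 and -0.12 in TH replicates 1 to 3. The small subunit averaged 0.08, 0.25 and -0.04 on THCaP, against 0.01, -0.15 and -0.15 on TH. In both subunits THCaP replicate 3 lay below TH replicate 1, so the groups overlap. The large minus small difference was -0.0102, -0.0462 and -0.0058 on THCaP, against 0.01, 0.023 and 0.0292 on TH. Grouped by place it was -0.0101, -0.0618 and 0.0016 on THCaP, against 0.0142, 0.0375 and 0.0186 on TH, so by place the sign in THCaP replicate 3 is positive as in the TH libraries. With FPKM, the authors' counts scaled to gene length and library total, summed over genes, the large to small ratio was 1.65, 1.62 and 1.62 on THCaP, against 1.65, 1.68 and 1.70 on TH. Here THCaP replicate 1 and TH replicate 1 could hardly be separated.

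**Figure D3:**
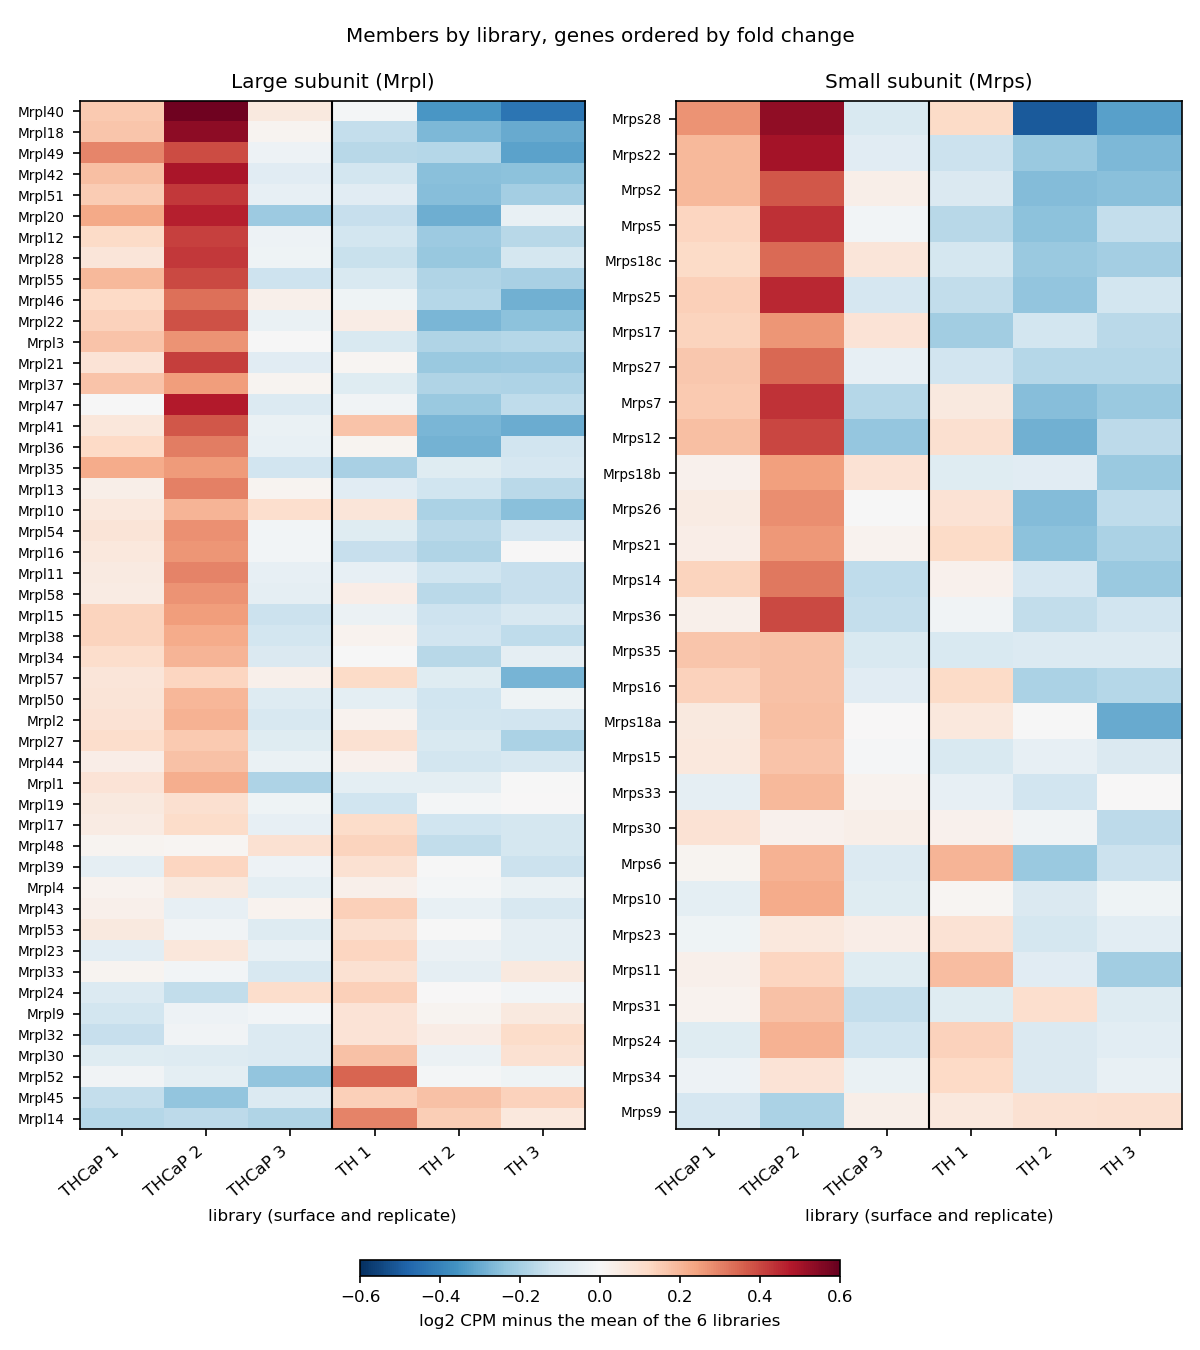
Log2 CPM of each gene minus its mean over the 6 libraries (colour), for large-subunit (left) and small-subunit genes (right), with 3 THCaP columns left of 3 TH columns and genes ordered by fold change. The THCaP replicate 2 column is the darkest red, and THCaP replicate 3 and TH replicate 1 are both near 0.

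The genes varied between libraries of a surface in a shared way. THCaP replicate 2 was the highest of all 6 libraries in 61 of the 78 genes (78.2%), against 33.1% of all tested genes. THCaP replicate 3 was the lowest THCaP library in 64 genes (82.1%), against 41.1% of all tested genes. TH replicate 1 was the highest TH library in 60 genes (76.9%), against 43.0%. The macrophage markers were also lowest on THCaP in replicate 3 and highest on TH in replicate 1: their mean relative log2 CPM was 0.06, 0.14 and -0.03 on THCaP, against 0.16, -0.15 and -0.17 on TH. Of these 8 markers 4 had a log2 fold change above 0 and 4 below. In 2 markers every THCaP library lay above every TH library, and in 2 every THCaP library lay below. Only Lyz2, a lysozyme gene, was called (log2 fold change 0.63, SE 0.16, edgeR adjusted p = 0.0223, higher on THCaP). At an unadjusted p under 0.05 in edgeR 5 markers passed (62.5%), against 39.1% of all tested genes. The part of these markers in the result was not tested.

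Genes of conserved and of mitochondria-specific proteins were also compared by count. Of 46 genes with a bacterial counterpart 6 rose and 1 fell, with a median log2 fold change of 0.21. Of 31 mitochondria-specific genes 4 rose and 1 fell, with a median of 0.17. The 4 mitochondria-specific genes that rose (Mrpl37, Mrpl40, Mrpl42 and Mrpl49) all lie in the large subunit, where 21 such genes were measured. Of the 10 mitochondria-specific genes of the small subunit 0 passed, and 4 (40%) had an unadjusted p under 0.05 in edgeR, a share near the 39.1% of all tested genes. Their median log2 fold change was 0.20 with 10 of 10 above 0, against 0.15 with 17 of 21 above 0 in the large subunit. So the contrast in calls is not matched by a larger median in the large subunit. Mrps36 was placed in neither class, since its protein is now known as a subunit of the alpha-ketoglutarate dehydrogenase complex; its log2 fold change was 0.21 (edgeR adjusted p = 0.294).

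In level per gene length the genes spread widely. Their mean FPKM over the 6 libraries ran from 3.95 to 105, with a median of 26.3, against 10.3 for all tested genes. Mrpl12 was highest, with 114.9, 140.1 and 103.6 FPKM on THCaP, against 95.1, 88.1 and 90.4 FPKM on TH. Mrpl52 and Mrpl43, both mitochondria-specific, followed in the large subunit with means of 91.2 and 77.6 FPKM. In the small subunit Mrps26, mitochondria-specific, averaged 89.7 FPKM, and Mrps21 and Mrps6, with bacterial counterparts, averaged 81.4 and 54.0 FPKM. The library ranges of Mrpl52, Mrps26 and Mrps21 overlap, so their order is not resolved. At the low end stood Mrps25 with 3.95 FPKM, Mrpl1, the counterpart of the other bacterial stalk protein, with 4.07 FPKM, and Mrpl14 with 5.07 FPKM. Mrpl35 averaged 6.25 FPKM, Mrps12, whose bacterial counterpart helps to keep decoding accurate, 8.94 FPKM, and Mrps31 12.0 FPKM.

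**Figure D4:**
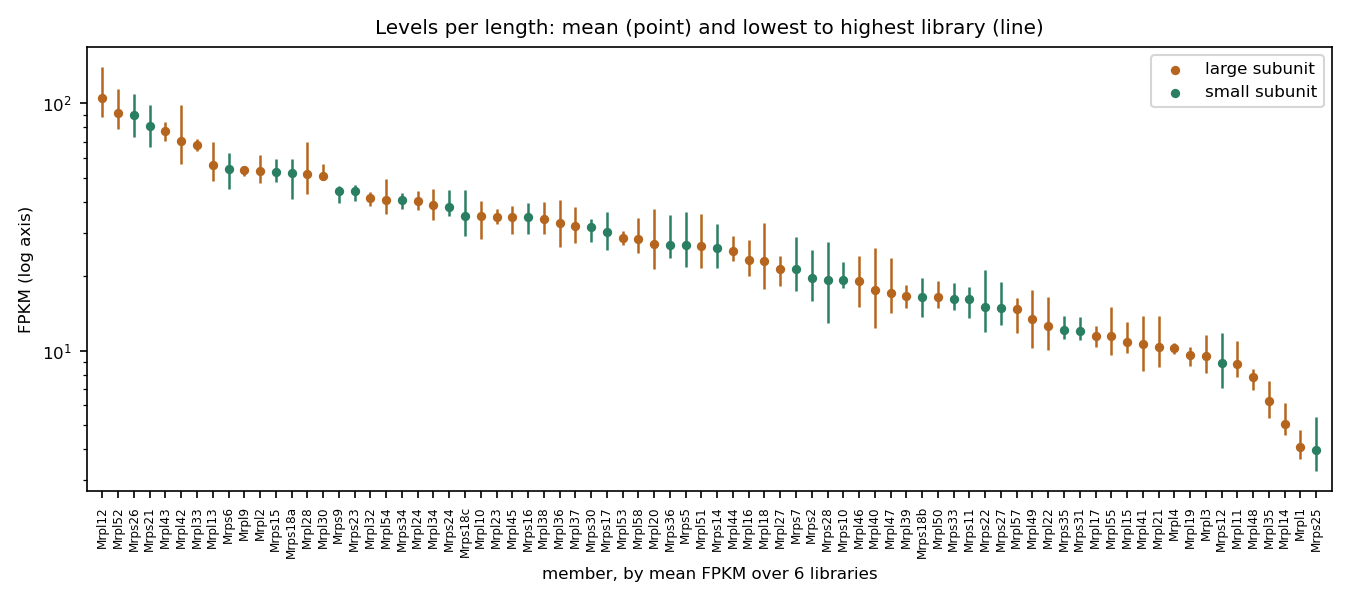
Deposited FPKM (y axis, log scale) of the 78 genes in order of their mean over 6 libraries, as a point for the mean and a line from the lowest to the highest library; brown is the large and green the small subunit. Genes of both subunits are mixed along the whole range from 105 to 3.95 FPKM.

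These levels depend on the gene length the authors used. For Mrpl14 the deposited length was 7525 bases, 7.93 times the 949 bases of its exons in GENCODE. In all, 4 genes exceeded the GENCODE length by more than 1.5 times (Mrpl14, Mrpl4, Mrpl41 and Mrpl18), while 34 fell short of it by as much. The counts of these 4 longer genes, among them the called Mrpl14 and Mrpl18, may include reads from outside their GENCODE exons. How far this bears on their calls was not tested. Across the 78 genes, log2 fold change and log2 mean FPKM had a Pearson r of -0.16 and a Spearman rho of -0.20, a description over genes that share libraries. In GENCODE, exons of 33 genes overlap those of another gene, among them Mrpl14 (106 bases with Tmem63b), Mrpl18 (141 bases with Tcp1) and Mrpl49 (91 bases with Syvn1). Since the strand setting of the counting is not given, reads from such stretches cannot be assigned.

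Many of these genes start next to another gene. A gene on the other strand started within 1000 bases of 33 of the 78 (42.3%), against 17.8% of the 11081 tested protein-coding genes. Of those 33, 6 rose (18.2%) and 1 fell (3.03%), with a median log2 fold change of 0.24. Of the other 45, 4 rose (8.89%) and 1 fell (2.22%), with a median of 0.17. Among all tested genes 11.6% were called higher and 12.0% lower, and the difference between the 33 and the 45 was not tested. Among the called genes with such a neighbour, the neighbours did not all move with the gene they start beside. Hira, a histone chaperone gene that starts 175 bases from Mrpl40, had 77.7, 95.1 and 69.9 CPM on THCaP, against 67.4, 61.4 and 56.9 CPM on TH, and rose with no overlap between groups (log2 fold change 0.39, SE 0.12, edgeR adjusted p = 0.0425). Cyb5rl, 120 bases from Mrpl37 and named for its likeness to cytochrome b5 reductase, had 9.77, 12.7 and 9.72 CPM on THCaP, against 6.62, 4.65 and 5.27 CPM on TH (log2 fold change 0.96, SE 0.17, edgeR adjusted p = 0.00801). Fau, 59 bases from Mrpl49, encodes a protein of the cytosolic ribosome and fell, with 784, 738 and 842 CPM on THCaP, against 1170.3, 929.6 and 991.9 CPM on TH (log2 fold change -0.39, SE 0.10, edgeR adjusted p = 0.0247). So Mrpl49 and Fau, which share a start region, passed the test in opposite directions. Tcp1, a subunit of the cytosolic chaperonin that starts 644 bases from Mrpl18, had a log2 fold change of -0.02 (edgeR adjusted p = 0.858). Near Mrpl14, Tmem63b, a membrane channel gene, had one of -0.24 (edgeR adjusted p = 0.140). Helq, 29 bases from Mrps18c, had one of 0.29 (edgeR adjusted p = 0.0973). Zfp661, 128 bases from Mrps5, had one of 0.23 (edgeR adjusted p = 0.344). These last neighbours, Tmem63b, Helq and Zfp661, had the sign of the called gene but were not called.

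Other genes of mitochondrial translation were counted in the same way. Of 5 ribosomal components that carry other symbols, Ptcd3 rose, with 77.3, 78.2 and 58.8 CPM on THCaP, against 51.7, 57.4 and 54.6 CPM on TH (log2 fold change 0.39, SE 0.11, edgeR adjusted p = 0.0373). THCaP replicate 3 was nearest to the TH libraries, and the median of the 5 genes was 0.17. Of 25 assembly factors 1 rose: Trub2, a pseudouridine synthase, had 30.0, 35.5 and 26.1 CPM on THCaP, against 23.0, 20.4 and 19.7 CPM on TH (log2 fold change 0.54, SE 0.12, edgeR adjusted p = 0.0173). Assembly factors had a median of 0.14. Of 15 translation factors measured, 2 rose, with a median of 0.09: Taco1, an activator of translation of a cytochrome oxidase subunit (log2 fold change 0.41, SE 0.11, edgeR adjusted p = 0.0301), and Lrpprc, which stabilises mitochondrial messenger RNA (log2 fold change 0.34, SE 0.09, edgeR adjusted p = 0.0296). Of 8 genes for mitochondrial transcription and DNA upkeep, Polg, the DNA polymerase, rose (log2 fold change 0.29, SE 0.08, edgeR adjusted p = 0.0320). Called higher were 20% of the other components, 4% of assembly factors, 13.3% of translation factors and 12.5% of transcription and DNA upkeep genes. No gene of these 4 lists fell. Among all tested genes 11.6% were called higher and 12.0% lower. At an unadjusted p under 0.05 in edgeR, 2 other components, 6 assembly factors, 5 translation factors and 2 transcription and DNA upkeep genes passed. These are 40, 24, 33.3 and 25% of their lists, near or below the 39.1% of all tested genes. Of 15 genes encoded by mitochondrial DNA, 0 were found in the count table under the symbols searched, so their transcripts were not analysed.

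**Figure D5:**
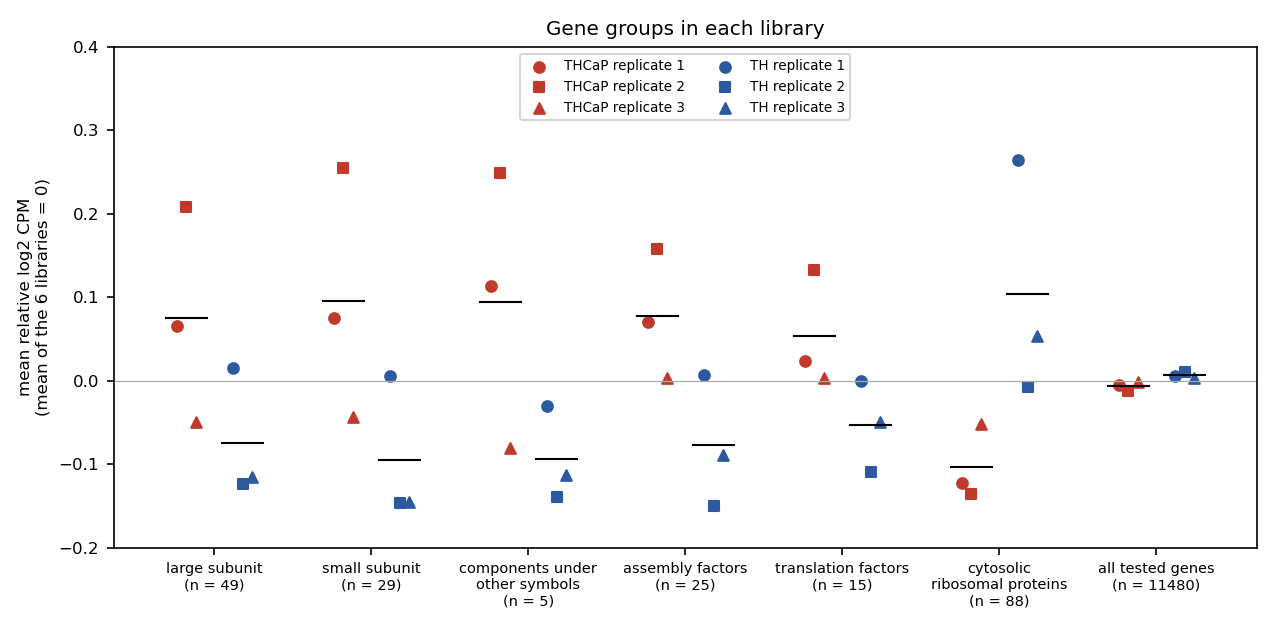
Mean relative log2 CPM (y axis; 0 is each gene's mean over 6 libraries) of gene groups in 3 THCaP libraries (red, left) and 3 TH libraries (blue, right), with the mean of each surface as a black line. In both subunits THCaP replicate 2 is highest and THCaP replicate 3 lies below TH replicate 1, and the cytosolic ribosomal protein genes are highest in TH replicate 1.

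Of 9 tested genes for known regulators of nuclear genes for mitochondria, 1 rose and 1 fell. Each is 11.1% of the list, near the 11.6% called higher and 12.0% called lower among all tested genes. The median log2 fold change of the 9 was -0.0070. Gabpb2, a subunit of GABP, had 224.1, 227.5 and 224.0 CPM on THCaP, against 157.9, 197.3 and 188.9 CPM on TH, and rose (log2 fold change 0.31, SE 0.09; adjusted p = 0.0393 in edgeR). The other GABP subunits were not called: Gabpa had a log2 fold change of -0.0070 (edgeR adjusted p = 0.956) and Gabpb1 one of 0.14 (edgeR adjusted p = 0.253). Yy1 had 160.6, 151.0 and 165.0 CPM on THCaP, against 165.0, 194.2 and 196.8 CPM on TH. Its groups did not overlap, with THCaP replicate 3 close below TH replicate 1, and it was not called (log2 fold change -0.22, SE 0.09, edgeR adjusted p = 0.0977). Myc, a factor known to promote ribosome and mitochondrial biogenesis, had 4.90, 3.11 and 7.23 CPM on THCaP, against 14.4, 12.6 and 12.2 CPM on TH. All THCaP libraries were below all TH libraries, and Myc fell (log2 fold change -1.36, SE 0.25, edgeR adjusted p = 0.0079). Nrf1 had a log2 fold change of 0.15 (edgeR adjusted p = 0.194).

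Beside the mitochondrial set stand the cytosolic ribosomal protein genes, many of which have near-identical processed copies, so that their counts are less certain. Of 88 tested, 0 rose and 28 fell on THCaP (31.8%, against 12.0% of all tested genes), and 67 (76.1%) had an unadjusted p under 0.05 in edgeR, against 39.1% of all tested genes. Their median log2 fold change was -0.25, against 0.18 for the mitochondrial ribosomal protein genes. Per library their mean relative log2 CPM was -0.12, -0.14 and -0.05 on THCaP, against 0.27, -0.0077 and 0.05 on TH, so the THCaP libraries lay below the TH libraries. TH replicate 1 was the highest TH library in 86 of the 88 genes. The difference between the 2 sets of genes was not tested.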

How the data were processed

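RNA of 3 THCaP and 3 TH libraries was extracted with TRIzol and made into libraries with the VAHTS Universal V6 kit, per the labels' protocols. The authors' deposited table holds raw read counts per gene symbol, made with fastp, HISAT2 and HTSeq on genome build mm10, per the submitters' processing notes. Not given in the sources used here are tool versions, the annotation, and whether counting used strand. Near-identical copies (Mrpl23, Mrpl48 and Mrps36 have pseudogenes) and overlapping genes may share reads or lose them. FPKM values, also deposited, were scaled by the authors to gene length and library total: count and FPKM gave a gene length whole within 0.01 bases for 100% of 11079 genes with at least 10 counts in every library. FPKM served here only to compare levels between genes and in alternatives.

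Low counts were removed with filterByExpr (at least 10 counts, total at least 15) of edgeR 4.0.16 in R 4.3.3, followed by TMM scaling and a robust quasi-likelihood F test of THCaP over TH on all 6 libraries without covariates. P-values were adjusted by Benjamini-Hochberg over 11480 genes and called under 0.05. The SE was obtained from the fold change and its F statistic. CPM are scaled with TMM factors. The fit was also run on simulated counts, with planted changes larger than any called among the mitochondrial ribosomal protein genes. Its outcome is not given here and lends no support to their calls. Total counts are close between libraries, so counting error is similar in all, and the spread between replicates sets the precision. Replicates of a surface differed by more than sampling noise (chi-square per degree of freedom 3.84 to 48.4), so none was counted as a duplicate.

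Alternatives were DESeq2 1.42.0, limma-voom and limma (3.58.1) on log2(FPKM + 1) and log2(FPKM + 0.1), other scalings and filters, gene length offsets (natural splines, 5 degrees of freedom), a replicate block, subunits by place, and each library left out. GENCODE vM21 (GRCm38, which is mm10) gave positions and exon overlaps; promoter windows came from RefSeq (GRCm38.p6).

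The genes and lists were chosen with earlier results of these data known. Named were all called genes, the 3 highest and 3 lowest of each subunit by FPKM, up to 4 called genes of at least 5 CPM per companion list, and Myc and Nrf1; genes named beyond this, start neighbours, other regulators and cytosolic ribosomal protein genes among them, were chosen after values were seen.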

Additional observations from a re-analysis of the deposited data

How the results depend on the processing

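The median log2 fold change of the 78 genes was above 0 under every alternative run (0.10 to 0.26), and no called named gene changed sign. Of 414 combinations of a named gene and an alternative, 329 kept direction and side of the threshold, 62 lost the call, 11 gained it and 12 changed sign without passing in either fit. Mrpl43, not called and at -0.0027, became 0.000993 with gene length offsets, 0.0495 with library totals, 0.0532 with limma on log2(FPKM + 0.1), 0.0526 with limma on log2(FPKM + 1) with and without a filter, 0.000273 with limma-voom, 0.000491 with a replicate block, 2.5e-05 with the block and length offsets, and 0.0694 when TH replicate 1 or 0.0227 when THCaP replicate 2 was left out. Leaving out each library in turn gave -0.0503 to 0.0694 for Mrpl43, -0.0064 to 0.19 for Mrpl1 and -0.0409 to 0.12 for Mrps31, the last pair below 0 without THCaP replicate 2. Over the fits that each left out a library, 0 to 30 of the 78 genes were called higher and 0 to 2 lower, and over all genes 291 to 2145 were called higher and 465 to 2020 lower. The main counts were 10 and 2 of the 78 genes, and 1333 and 1376 of all genes. With gene length offsets 19 of the 78 were called higher, and with library totals 16. With limma on log2(FPKM + 1) and on log2(FPKM + 0.1), 19 were called higher and 1 lower (Mrpl45). With limma on log2(FPKM + 1) without a filter, 3 were called higher and 1 lower, and 729 and 530 of all genes. The labels do not say whether replicate numbers pair the samples. Deviations of same-numbered libraries correlated at -0.02, -0.07 and 0.06, and 2 of 6 libraries correlated best with their own number. With so few libraries these values cannot show whether the samples were paired. With a replicate block 12 were called higher and 2 lower (25.1% of all genes called), of which 8 and 2 were called without it, and with the block and gene length offsets 17 were called higher and 2 lower (29.1% of all genes). DESeq2 called 15 higher and 2 lower. The cause of these shifts was not tested, except that fits without a library rest on fewer samples. Each of these genes had at least 208 counts in every library, so depth limits them less than the spread between replicates.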
